A study of Homo sapiens with 12 samples.

Results

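The genes described here are the G protein-coupled receptor genes of HEK293T cells that carry a wild-type or mutant copy of the histone methyltransferase EZH2. They were chosen by gene symbol alone: adhesion receptors (ADGR), adenosine, adrenergic, muscarinic, dopamine and serotonin receptors, lipid receptors for lysophosphatidic acid, sphingosine-1-phosphate and prostaglandin E2, nucleotide and protease-activated receptors, opioid and neuropeptide Y receptors, class C receptors and the receptors known by a GPR number. Of the 14438 genes in the deposited count table, 68 matched, out of 183 protein-coding genes of the GENCODE v44 annotation with such a symbol. The rule itself uses no measured value, but it was set with earlier results of these data known. Only receptors that passed the filter behind the deposited table, which is not described, could match.

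RNA-Seq of poly(A)-selected RNA was carried out in 4 lines of HEK293T, a human embryonic kidney line, with 3 samples each and 12 in all. Each line was infected with lentivirus carrying EZH2 WT, the gain-of-function (GOF) mutants EZH2 Y641F or EZH2 A677G, or the loss-of-function double mutant EZH2 H689A/F667I, and then selected with blasticidin. All 4 lines therefore share the parental cells, the added EZH2 and the drug selection, and no change to their own EZH2 gene is described. The study describes the selected populations as monoclonal, so a mutation cannot be told apart from the clone that carries it, and p-values measure the spread between 3 samples of a line, which may be technical.

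G protein-coupled receptors cross the cell membrane in a bundle of helices and pass the binding of a ligand to a heterotrimeric G protein. The alpha subunit then acts on enzymes such as adenylyl cyclase or phospholipase C, the beta and gamma subunits on channels and other enzymes, and kinases, arrestins and RGS proteins end the signal. EZH2 is the catalytic subunit of Polycomb repressive complex 2 and methylates lysine 27 of histone H3, a mark of repressed genes, and many receptor genes for transmitters and hormones are silent outside the tissues that use them.

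Library totals lay between 32137700 and 44562413 counts, so that 1 count was worth 0.0224 to 0.0310 CPM, the count scaled to libraries of equal size. EZH2 itself, whose endogenous and introduced copies the gene counts do not separate, had 158.1 ± 4.32 CPM in EZH2 WT and 208.0 ± 2.03 in EZH2 H689A/F667I, against 217.8 ± 9.61 in EZH2 Y641F and 173.4 ± 8.57 in EZH2 A677G (mean ± SD, n = 3). Relative to EZH2 WT its log2 fold change was 0.40 (standard error 0.040, adjusted p = 1.15e-07), 0.46 (standard error 0.0399, adjusted p = 1.57e-10) and 0.13 (standard error 0.0401, adjusted p = 0.0294) in that order of mutants. Embryonic kidney markers were in the table for 6 of 8 genes and summed to 116 to 129 CPM in every sample. Neuronal markers were in the table for 4 of 6 genes (NEFL, NEFM, INA and TUBB3, without STMN2 and ELAVL4) and summed to 330 to 350 CPM in EZH2 WT, 205 to 246 in EZH2 Y641F, 175 to 197 in EZH2 A677G and 282 to 288 in EZH2 H689A/F667I. Of 4 endothelial markers KDR alone was in the table, at 0.673 to 0.784 CPM in EZH2 WT, 0.105 to 0.428 in EZH2 Y641F, 0.165 to 0.404 in EZH2 A677G and 0.497 to 0.611 in EZH2 H689A/F667I. Of the neuronal genes, NEFL went from 133.0 ± 4.67 CPM in EZH2 WT to 79 ± 4.29 for EZH2 Y641F and 73.1 ± 3.99 for EZH2 A677G, and NEFM from 184.7 ± 7.12 to 126.1 ± 18.4 and 91 ± 9.11 (mean ± SD, n = 3). INA, at 17 ± 0.92, 15.3 ± 1.62 and 17.8 ± 0.854, and TUBB3, at 7.15 ± 1.35, 5.94 ± 0.565 and 6.89 ± 1.16, showed no fall of this size. NEFL, NEFM and KDR moved with the receptor genes described below, and their part in that change was not tested. Of 4 fibroblast markers COL1A1 and PDGFRA were in the table, summing to 7.47 to 12.2 CPM.

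Receptor transcripts were scarce in all lines. The 68 genes together took 0.0716% to 0.0816% of the counts of a library, and their median level was 2.84 CPM, against 24.5 CPM over all genes tested. A mean under 1 CPM was found for 13 receptors, 1 to 10 CPM for 33 and over 10 CPM for 22. Per kilobase of exon, which allows levels of different genes to be compared, GPR180 stood first with 14.1 CPM per kb, followed by the alpha-2C adrenergic receptor ADRA2C with 10.9, the thrombin receptor F2R with 9.10, the adenosine receptor ADORA2B with 8.21 and GPR107, a Golgi membrane protein, with 7.75. The median receptor had 0.785 CPM per kb, and the lowest was PTGER3, a prostaglandin E2 receptor, with 0.0354.

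Expression of each receptor was compared between lines to ask which of these genes follow the gain or loss of EZH2 activity. Of the 67 receptors tested, 16 fell and 2 rose in EZH2 Y641F relative to EZH2 WT at an adjusted p under 0.05 (edgeR's quasi-likelihood test, Benjamini-Hochberg over 14263 genes), where 5.59% of all genes tested fell and 2.09% rose. In EZH2 A677G 19 receptors fell and 2 rose relative to the same samples, with 6.48% and 2.07% of all genes. Receptors that fell were thus 23.9% of those tested for EZH2 Y641F and 28.4% for EZH2 A677G, while 2.99% rose in each, near the share of all genes. Over the receptors, the median of the log2 fold change was -0.14 for EZH2 Y641F and -0.20 for EZH2 A677G, against 0.0025 and 0.0045 over all genes. With a single library left out, the number of receptors that fell went from 16 to 10 for EZH2 Y641F (without EZH2 WT replicate 1 or 2 or EZH2 Y641F replicate 3) and from 19 to 12 for EZH2 A677G (without EZH2 WT replicate 1). In a bulk sample, fewer cells that express a gene and less RNA per cell cannot be told apart.

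No receptor passed the threshold in EZH2 H689A/F667I against EZH2 WT by the same test, where 0.161% of all genes were lower and 0.14% higher. At an unadjusted p under 0.05 there were 14 of the 67 receptors, beside 1184 of the 14263 genes tested. At the adjusted threshold edgeR's exact test called 2 receptors, limma voom 1 and DESeq2 0. Against EZH2 H689A/F667I, EZH2 Y641F had 15 lower receptors and 2 higher ones (6.43% and 2.49% of all genes), and EZH2 A677G had 21 lower and 1 higher (7.66% and 2.64%). These lower counts went to 9 without EZH2 Y641F replicate 3 or EZH2 H689A/F667I replicate 3, and to 13 without EZH2 A677G replicate 2. Between the GOF lines no receptor was called by edgeR's quasi-likelihood test, by its exact test, by DESeq2 or by limma voom. In the first of these, 5 of the 67 receptors had an unadjusted p under 0.05, beside 985 of the 14263 genes tested. At the adjusted threshold, 0.014% of all genes were lower in EZH2 Y641F and 0.0701% lower in EZH2 A677G.

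**Figure D1:**
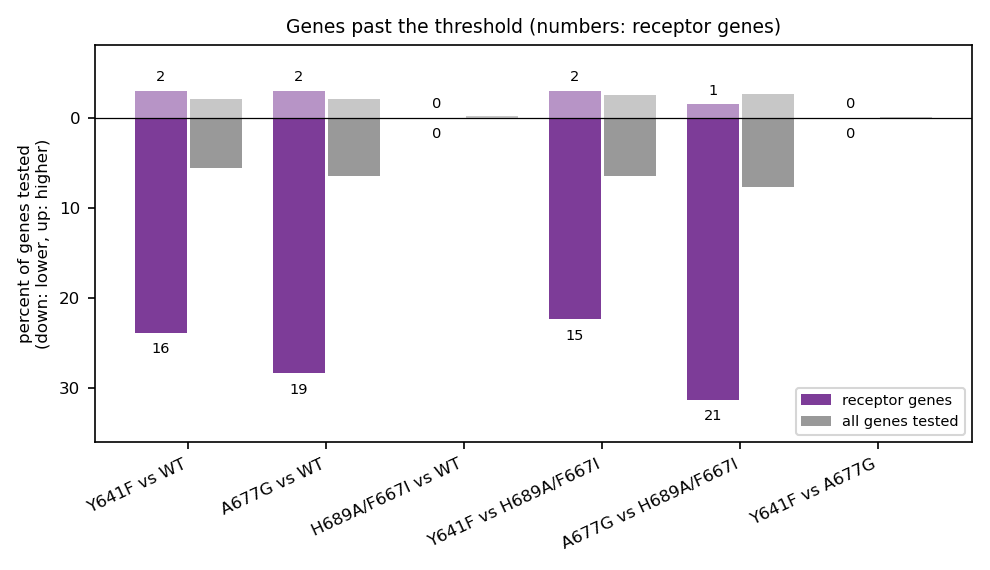
Percent of genes past the threshold in each of the 6 comparisons, lower genes drawn downward and higher genes upward, for the 67 receptor genes (purple, with their number) and all 14263 genes tested (grey). Lower receptors reach 22.4% to 31.3% in the 4 comparisons of a GOF line with EZH2 WT or EZH2 H689A/F667I, where 5.59% to 7.66% of all genes were lower.

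The share of genes called lower also depends on the level of expression. In EZH2 A677G against EZH2 WT, 5.79% of all genes under 1 CPM were lower, 11.2% of those at 1 to 3 CPM, 13.2% at 3 to 10 CPM and 4.33% over 10 CPM. The receptors lower at these levels were 4 of 12, 4 of 22, 6 of 11 and 5 of 22. In EZH2 Y641F the same levels held 5.23%, 9.45%, 11% and 3.81% of all genes, and 2 of 12, 6 of 22, 5 of 11 and 3 of 22 receptors. The share of receptors was the larger at each of the 4 levels in both lines, on as few as 2 genes.

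EZH2 Y641F and EZH2 A677G were each set against the same EZH2 WT samples. A pair of comparisons without a sample in common is EZH2 Y641F against EZH2 WT and EZH2 A677G against EZH2 H689A/F667I. It shared 11 lower receptors, 68.8% of the 16 and 52.4% of the 21, against 572 lower genes among all those tested, 71.8% of 797 and 52.3% of 1093. The 11 receptors were ADGRG6, ADORA1, GPR37, GPR85, GPR161, GPR176, HTR7, LPAR1, NPY1R, S1PR1 and S1PR3. The converse pair, EZH2 A677G against EZH2 WT and EZH2 Y641F against EZH2 H689A/F667I, shared 12, which were those genes and GPRC5C. This is 63.2% of the 19 and 80% of the 15, against 62.9% of 924 and 63.4% of 917 over all genes. Apart from the last of these shares, receptors overlapped about as often as all lower genes did.

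**Figure D2:**
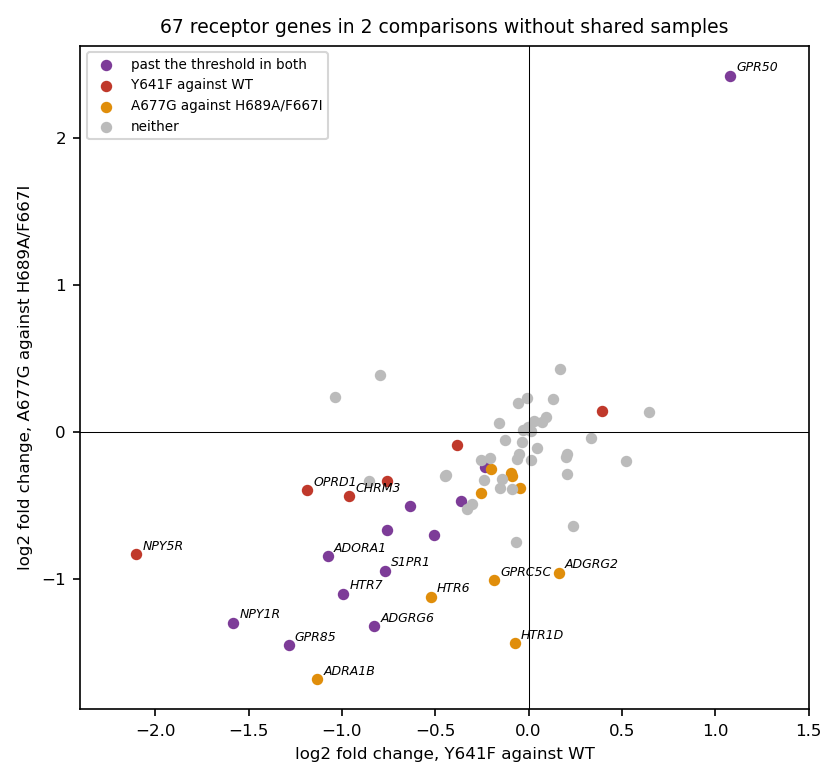
Log2 fold changes of the 67 receptor genes in EZH2 Y641F against EZH2 WT (horizontal) and in EZH2 A677G against EZH2 H689A/F667I (vertical), which have no sample in common. The 11 receptors lower in both lie at the lower left, and GPR50 is the purple point at the upper right.

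Of 9 peptide receptor genes with such a symbol, 4 were in the table: the neuropeptide Y receptors NPY1R and NPY5R, the delta opioid receptor and the nociceptin receptor OPRL1. Relative to EZH2 WT, 3 of these 4 fell in EZH2 Y641F and 2 in EZH2 A677G, beside 5.59% and 6.48% of all genes. NPY1R and NPY5R couple to inhibitory G proteins and are known for their part in appetite and blood pressure. NPY1R (ENSG00000164128.7, chromosome 4 of GRCh38, 163323962 to 163344832) and NPY5R (ENSG00000164129.12, chromosome 4 of GRCh38, 163343892 to 163351934) are neighbours on opposite strands. The samples of EZH2 WT had 3.03, 2.8 and 2.41 CPM of NPY1R and those of EZH2 H689A/F667I 1.71, 1.55 and 2.23, while EZH2 Y641F had 0.856, 0.998 and 0.898 and EZH2 A677G 0.673, 0.786 and 0.768. Every EZH2 WT sample lay above every EZH2 H689A/F667I sample, and these lay above all samples of the GOF lines. Its log2 fold change from EZH2 WT was -1.58 (standard error 0.24, adjusted p = 1.39e-05) for EZH2 Y641F and -1.89 (standard error 0.248, adjusted p = 1.01e-06) for EZH2 A677G, that is to 0.334 and 0.27 of the EZH2 WT level. Against EZH2 H689A/F667I it was -0.99 (standard error 0.249, adjusted p = 0.00738) and -1.29 (standard error 0.256, adjusted p = 0.000487). The first of these was lost without EZH2 H689A/F667I replicate 3 (adjusted p = 0.0646). EZH2 H689A/F667I itself was at -0.59 (standard error 0.226, adjusted p = 0.409) relative to EZH2 WT, which did not pass the threshold.

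For NPY5R the samples gave 1.43, 0.725 and 1.27 CPM in EZH2 WT and 0.325, 0.356 and 0.621 in EZH2 H689A/F667I, against 0.143, 0.42 and 0.236 in EZH2 Y641F and 0.179, 0.246 and 0.302 in EZH2 A677G. Here EZH2 WT stood above the samples of all 3 mutants, which overlapped in part. Its log2 fold change was -2.10 (standard error 0.404, adjusted p = 0.000454) for EZH2 Y641F and -2.23 (standard error 0.411, adjusted p = 0.000212) for EZH2 A677G, and -1.41 (standard error 0.382, adjusted p = 0.139) for EZH2 H689A/F667I, which edgeR's exact test called and the quasi-likelihood test did not. Against EZH2 H689A/F667I neither GOF line passed the threshold, with a log2 fold change of -0.70 (standard error 0.461, adjusted p = 0.422) for EZH2 Y641F and -0.83 (standard error 0.469, adjusted p = 0.319) for EZH2 A677G. The exons of NPY1R and NPY5R share 528 bases, 13.3% of the exon length of NPY1R and 15.8% of that of NPY5R. Whether counting used the strand is not given in the sources used here, and reads in those bases could count for either gene.

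The starts of the 2 receptors differ in their content of CG dinucleotides, the sites of DNA methylation that are also frequent at promoters bound by Polycomb complexes, and they are shown here since NPY5R and NPY1R had the lowest log2 fold changes against EZH2 WT of the receptors called in both GOF lines. Each was taken from RefSeq (GRCh38.p14) and runs 5′ to 3′ on the gene's strand from 250 bases before a start to 50 after it, with CG in capitals. The window of NPY1R, chr4:163332547-163332846 on the minus strand, lies within the gene's span in GENCODE and holds 16 CG. That of NPY5R, chr4:163343852-163344151 on the plus strand, is the one with more CG of its RefSeq starts, lies within that span as well, and holds 37.
NPY1R: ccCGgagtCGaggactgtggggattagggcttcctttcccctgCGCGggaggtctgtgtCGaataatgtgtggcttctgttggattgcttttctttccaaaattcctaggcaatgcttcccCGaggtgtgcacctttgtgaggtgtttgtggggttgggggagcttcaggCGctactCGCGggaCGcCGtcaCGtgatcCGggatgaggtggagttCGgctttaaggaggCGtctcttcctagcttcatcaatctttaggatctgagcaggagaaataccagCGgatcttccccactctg
NPY5R: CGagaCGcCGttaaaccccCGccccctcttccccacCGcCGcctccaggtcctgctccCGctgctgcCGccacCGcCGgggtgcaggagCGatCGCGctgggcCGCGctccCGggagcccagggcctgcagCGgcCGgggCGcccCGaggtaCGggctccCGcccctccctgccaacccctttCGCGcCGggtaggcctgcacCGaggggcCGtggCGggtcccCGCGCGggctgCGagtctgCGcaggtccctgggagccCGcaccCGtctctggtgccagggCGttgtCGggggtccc
The 10435 tested genes with a window were ranked by CG count, with tied genes given their mean rank. NPY1R stood 13.3% of the way up this ranking and NPY5R 76.8%. Both genes were lower in both GOF lines than in EZH2 WT, and a link of this to CG content was not tested. Which starts of these genes are used in the cells was not tested either.

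OPRD1, the delta opioid receptor, had 0.866, 1.29 and 0.784 CPM in EZH2 WT and 0.499, 0.315 and 0.473 in EZH2 Y641F, without overlap. It was lower in EZH2 Y641F, with a log2 fold change of -1.19 (standard error 0.371, adjusted p = 0.0403). That call was lost without EZH2 WT replicate 1 or 2 or EZH2 Y641F replicate 2 or 3 (adjusted p 0.0679 to 0.261) and by limma voom (0.0647). In EZH2 A677G the samples spread from 0.295 to 0.987 CPM and overlapped those of both lines, and the log2 fold change of -0.63 (standard error 0.351, adjusted p = 0.319) did not pass the threshold. OPRL1 was called in no comparison.

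Of the 11 receptors for amines and adenosine, 4 fell relative to EZH2 WT in EZH2 Y641F, 5 fell in EZH2 A677G, and none rose in either. Of all genes, 5.59% and 6.48% fell and 2.09% and 2.07% rose in these lines. ADORA1, the adenosine A1 receptor that lowers cyclic AMP, is at chromosome 1 (203090654 to 203167405, plus strand, ENSG00000163485.18). Its samples gave 2.44, 2.15 and 1.9 CPM in EZH2 WT and 2.08, 2.24 and 1.99 in EZH2 H689A/F667I, against 0.999, 0.762 and 1.3 in EZH2 Y641F and 0.853, 0.958 and 1.75 in EZH2 A677G. All samples of both GOF lines lay below all others, and EZH2 A677G replicate 3 stood nearest to them. Against EZH2 H689A/F667I the log2 fold change was -1.04 (standard error 0.264, adjusted p = 0.00816) for EZH2 Y641F and -0.84 (standard error 0.26, adjusted p = 0.0305) for EZH2 A677G. Against EZH2 WT it was -1.08 (standard error 0.263, adjusted p = 0.00626) and -0.88 (standard error 0.26, adjusted p = 0.0249). The EZH2 A677G calls rest on few libraries: the one against EZH2 WT was lost without EZH2 WT replicate 1 or 2 or EZH2 A677G replicate 1 or 2 (adjusted p 0.0725 to 0.178), and the one against EZH2 H689A/F667I without EZH2 A677G replicate 1 or 2 or any EZH2 H689A/F667I replicate (0.0576 to 0.198). ADORA1 and ADGRG6 are on the study's list of common EZH2 targets, which was chosen in part on these samples, so that their direction is not independent evidence. ADORA1 shares 10.6% of its exon length with an antisense RNA gene.

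Serotonin receptors that raise cyclic AMP were HTR7 and HTR6. HTR7, on chromosome 10 (90740823 to 90858039, minus strand, ENSG00000148680.16), had 1.68, 1.17 and 1.15 CPM in EZH2 WT and 1.25, 1.63 and 1.36 in EZH2 H689A/F667I, against 0.666, 0.473 and 0.851 in EZH2 Y641F and 0.718, 0.344 and 0.932 in EZH2 A677G. Both GOF lines lay below the other lines in every sample. The log2 fold change against EZH2 WT was -0.99 (standard error 0.321, adjusted p = 0.0493) for EZH2 Y641F and -1.01 (standard error 0.322, adjusted p = 0.0422) for EZH2 A677G, and against EZH2 H689A/F667I -1.08 (standard error 0.319, adjusted p = 0.0251) and -1.10 (standard error 0.32, adjusted p = 0.0208). These calls stood close to the threshold. In EZH2 Y641F against EZH2 WT the call was lost in 6 of 12 other settings (adjusted p 0.0507 to 0.083) and without any EZH2 WT replicate or EZH2 Y641F replicate 1 or 2 (0.0593 to 0.257). In EZH2 A677G against EZH2 WT it was lost without any EZH2 WT replicate or EZH2 A677G replicate 1 or 2 (0.052 to 0.272). Against EZH2 H689A/F667I the EZH2 Y641F call was lost without EZH2 Y641F replicate 2 or EZH2 H689A/F667I replicate 2 or 3 (0.052 to 0.119), and the EZH2 A677G call without EZH2 A677G replicate 1 or 2 or EZH2 H689A/F667I replicate 2 (0.0505 to 0.164).

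HTR6 had 1.11, 1.19 and 1.24 CPM in EZH2 WT and 1.03, 1.32 and 0.838 in EZH2 H689A/F667I, against 0.666, 0.946 and 0.851 in EZH2 Y641F and 0.538, 0.491 and 0.439 in EZH2 A677G. EZH2 A677G was below all other samples and EZH2 Y641F lay between it and EZH2 WT. It was lower in EZH2 A677G, with a log2 fold change of -1.26 (standard error 0.311, adjusted p = 0.00638) against EZH2 WT and -1.12 (standard error 0.315, adjusted p = 0.016) against EZH2 H689A/F667I, the latter lost without EZH2 A677G replicate 2 or 3 or EZH2 H689A/F667I replicate 2 (adjusted p 0.0502 to 0.117). The difference of EZH2 Y641F from EZH2 A677G was 0.73 (standard error 0.321, adjusted p = 0.66), with a 95% interval of 0.08 to 1.38. HTR1D, an inhibitory serotonin receptor, had 0.304 ± 0.124 CPM in EZH2 A677G and 0.849 ± 0.152 in EZH2 H689A/F667I (mean ± SD, n = 3), with a log2 fold change of -1.44 (standard error 0.373, adjusted p = 0.00851). Without EZH2 A677G replicate 3 its adjusted p was 0.0689.

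Among the adrenergic receptors, ADRA2C on chromosome 4 (3766348 to 3768526, plus strand, ENSG00000184160.8) had 29, 27.7 and 26.3 CPM in EZH2 WT and 23.4, 24.1 and 23.3 in EZH2 H689A/F667I, against 22.1, 20.9 and 20.4 in EZH2 Y641F and 20.7, 21.8 and 24.3 in EZH2 A677G. EZH2 WT was the highest line in every sample, and the mutants overlapped one another in part. The log2 fold change was -0.39 (standard error 0.0687, adjusted p = 0.000155) for EZH2 Y641F and -0.32 (standard error 0.0685, adjusted p = 0.00165) for EZH2 A677G, and -0.23 (standard error 0.0687, adjusted p = 0.213) for EZH2 H689A/F667I, which did not pass the threshold. The calls in EZH2 Y641F and EZH2 A677G held in all 12 other settings and without any single library. ADRA1B, which activates phospholipase C, was at 0.522 ± 0.0945 CPM in EZH2 WT, 0.164 ± 0.0303 in EZH2 A677G and 0.542 ± 0.288 in EZH2 H689A/F667I (mean ± SD, n = 3). EZH2 Y641F, at 0.238 ± 0.18, was below every EZH2 WT sample but was not called. ADRA1B was lower in EZH2 A677G, with a log2 fold change of -1.65 (standard error 0.523, adjusted p = 0.04) against EZH2 WT and -1.68 (standard error 0.523, adjusted p = 0.0322) against EZH2 H689A/F667I. The first call was lost without any 1 of the 6 libraries (adjusted p 0.0627 to 0.159) and by DESeq2 or with a GC trend removed and replicates blocked (0.0521 to 0.0562), and the second without any EZH2 A677G replicate or EZH2 H689A/F667I replicate 3 (0.0638 to 0.25).

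CHRM3, the muscarinic receptor of smooth muscle and glands, had 1.81, 2.07 and 1.87 CPM in EZH2 WT and 1.14, 1.13 and 0.686 in EZH2 Y641F, with a log2 fold change of -0.96 (standard error 0.276, adjusted p = 0.0224) between them, a call lost without EZH2 WT replicate 1 or 2 or EZH2 Y641F replicate 3 (adjusted p 0.0506 to 0.145). In EZH2 A677G its value was -0.83 (standard error 0.272, adjusted p = 0.0507). ADORA2B, the adenosine receptor of low affinity, was lower in EZH2 Y641F and EZH2 A677G than in EZH2 H689A/F667I, with a log2 fold change of -0.25 (standard error 0.0766, adjusted p = 0.0349) and -0.25 (standard error 0.0766, adjusted p = 0.0312). Its level was 17.7 ± 1.76 CPM in EZH2 Y641F, 17.7 ± 0.367 in EZH2 A677G, 21 ± 0.983 in EZH2 H689A/F667I and 20.4 ± 1.15 in EZH2 WT (mean ± SD, n = 3). Both calls were lost without some libraries: the first without EZH2 Y641F replicate 2 or 3 or any EZH2 H689A/F667I replicate (adjusted p 0.0525 to 0.158), the second without any EZH2 A677G replicate or EZH2 H689A/F667I replicate 2 or 3 (0.0614 to 0.146). Both were also lost when samples were scaled by library totals alone, and the first when only the 2 compared lines were fitted (0.0501 for the second and 0.0741 to 0.0775 for the first). ADRB1 and HTR2C were called in no comparison.

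Lipid receptors fell in 4 of 11 cases in EZH2 Y641F, 5 of 11 fell in EZH2 A677G, and 1 rose in EZH2 A677G, relative to EZH2 WT. Of all genes, 5.59% fell in EZH2 Y641F, and 6.48% fell and 2.07% rose in EZH2 A677G. LPAR1, the widely expressed receptor for lysophosphatidic acid, lies on chromosome 9 (110873263 to 111038470, minus strand, ENSG00000198121.15). It had 10.6, 9.58 and 9.65 CPM in EZH2 WT and 11.4, 9.47 and 9.59 in EZH2 H689A/F667I, against 6.3, 5.94 and 5.39 in EZH2 Y641F and 6.89, 6.17 and 6.09 in EZH2 A677G. The GOF samples lay well apart from the others. On the log2 scale the change from EZH2 WT was -0.76 (standard error 0.112, adjusted p = 8.16e-06) for EZH2 Y641F and -0.64 (standard error 0.111, adjusted p = 0.000103) for EZH2 A677G, and against EZH2 H689A/F667I -0.79 (standard error 0.112, adjusted p = 4.6e-06) and -0.67 (standard error 0.111, adjusted p = 4.74e-05). These 4 calls held in every other setting and without any single library. LPAR3, a second receptor for the same lipid, was higher in level and moved less: it was lower in EZH2 A677G, with a log2 fold change of -0.24 (standard error 0.071, adjusted p = 0.0295) against EZH2 WT and -0.38 (standard error 0.0706, adjusted p = 0.000244) against EZH2 H689A/F667I, with 21.8 ± 0.359 CPM in EZH2 WT, 18.5 ± 0.413 in EZH2 A677G and 24 ± 0.299 in EZH2 H689A/F667I (mean ± SD, n = 3). The first of these was lost without any EZH2 WT replicate or EZH2 A677G replicate 1 or 2 (adjusted p 0.0523 to 0.107). LPAR6, whose loss is known from hereditary hair loss, went the other way, with 1.19, 1.4 and 1.39 CPM in EZH2 WT and 2.46, 1.6 and 2.05 in EZH2 H689A/F667I, against 2.38, 2.29 and 1.56 in EZH2 Y641F and 2.47, 1.99 and 2.25 in EZH2 A677G. All 3 mutants were above EZH2 WT in every sample, and EZH2 A677G passed the threshold with 0.76 (standard error 0.231, adjusted p = 0.032). Without any EZH2 WT replicate or EZH2 A677G replicate 1 or 3 it did not (0.0637 to 0.142).

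Of the receptors for sphingosine-1-phosphate, S1PR1 guides lymphocyte exit from lymphoid organs and vessel growth, and S1PR3 acts in vessels and heart. S1PR1, on chromosome 1 (101236865 to 101243713, plus strand, ENSG00000170989.10), had 3.84, 3.68 and 5.01 CPM in EZH2 WT and 4.65, 3.13 and 4.53 in EZH2 H689A/F667I, against 3.02, 2.21 and 2.08 in EZH2 Y641F and 1.57, 2.65 and 2.19 in EZH2 A677G. Both GOF lines lay below the other lines, with EZH2 Y641F replicate 1 close to EZH2 H689A/F667I replicate 2. Its log2 fold change against EZH2 WT was -0.77 (standard error 0.199, adjusted p = 0.0101) for EZH2 Y641F and -0.97 (standard error 0.202, adjusted p = 0.00112) for EZH2 A677G, and against EZH2 H689A/F667I -0.75 (standard error 0.199, adjusted p = 0.0121) and -0.94 (standard error 0.203, adjusted p = 0.00131). The EZH2 Y641F calls were lost without EZH2 WT replicate 3 or EZH2 Y641F replicate 3 (against EZH2 WT, adjusted p 0.0651 to 0.0875) and without EZH2 Y641F replicate 2 or 3 or EZH2 H689A/F667I replicate 1 or 3 (against EZH2 H689A/F667I, 0.0504 to 0.0984). S1PR3, on chromosome 9 (88990863 to 89005155, plus strand, ENSG00000213694.7), had 7.01, 6.03 and 6.25 CPM in EZH2 WT and 5.52, 8.43 and 7.63 in EZH2 H689A/F667I, against 4.9, 4.02 and 4.66 in EZH2 Y641F and 3.66, 4.57 and 5.16 in EZH2 A677G. Here too no GOF sample reached another line. It was at -0.50 (standard error 0.149, adjusted p = 0.0277) for EZH2 Y641F and -0.53 (standard error 0.149, adjusted p = 0.0173) for EZH2 A677G against EZH2 WT, and at -0.67 (standard error 0.147, adjusted p = 0.00203) and -0.70 (standard error 0.148, adjusted p = 0.00113) against EZH2 H689A/F667I. Against EZH2 WT the EZH2 Y641F call was lost without any EZH2 WT replicate or EZH2 Y641F replicate 2 or 3 (0.0521 to 0.151) and by limma voom (0.0538), and the EZH2 A677G call without EZH2 WT replicate 1 or EZH2 A677G replicate 1 (0.107 to 0.16). S1PR2 and S1PR5 were called in no comparison.

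PTGER2 and PTGER3, receptors for prostaglandin E2, were each called in 1 GOF line. PTGER2, which raises cyclic AMP, was lower in EZH2 Y641F (2.23, 0.84 and 1.75 CPM) than in EZH2 WT (2.6, 2.9 and 2.71 CPM), with a log2 fold change of -0.76 (standard error 0.241, adjusted p = 0.0458). EZH2 A677G, with 1.84, 2.41 and 1.865 CPM, was also below every EZH2 WT sample but was not called. EZH2 Y641F replicate 2 was the lowest sample, and the call was lost without it, without replicate 3 of that line or without any EZH2 WT replicate (adjusted p 0.0723 to 0.253), and with library totals or only the 2 compared lines (0.0649 to 0.072). PTGER3, which lowers cyclic AMP, had 0.704, 0.777 and 0.422 CPM in EZH2 WT, 0.247, 0.147 and 0.219 in EZH2 A677G and 0.189, 0.229 and 0.372 in EZH2 H689A/F667I. Both of these mutants were below EZH2 WT in every sample. EZH2 Y641F, with 0.238, 0.473 and 0.355 CPM, was lower on average, overlapped EZH2 WT and was not called. EZH2 A677G passed the threshold with -1.62 (standard error 0.44, adjusted p = 0.0134), a call lost without EZH2 WT replicate 1 or 2 or EZH2 A677G replicate 2 (0.0599 to 0.0876), and EZH2 H689A/F667I did not, with a log2 fold change of -1.29 (standard error 0.432, adjusted p = 0.311). LPAR2 and PTGER4 were called in no comparison.

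**Figure D3:**
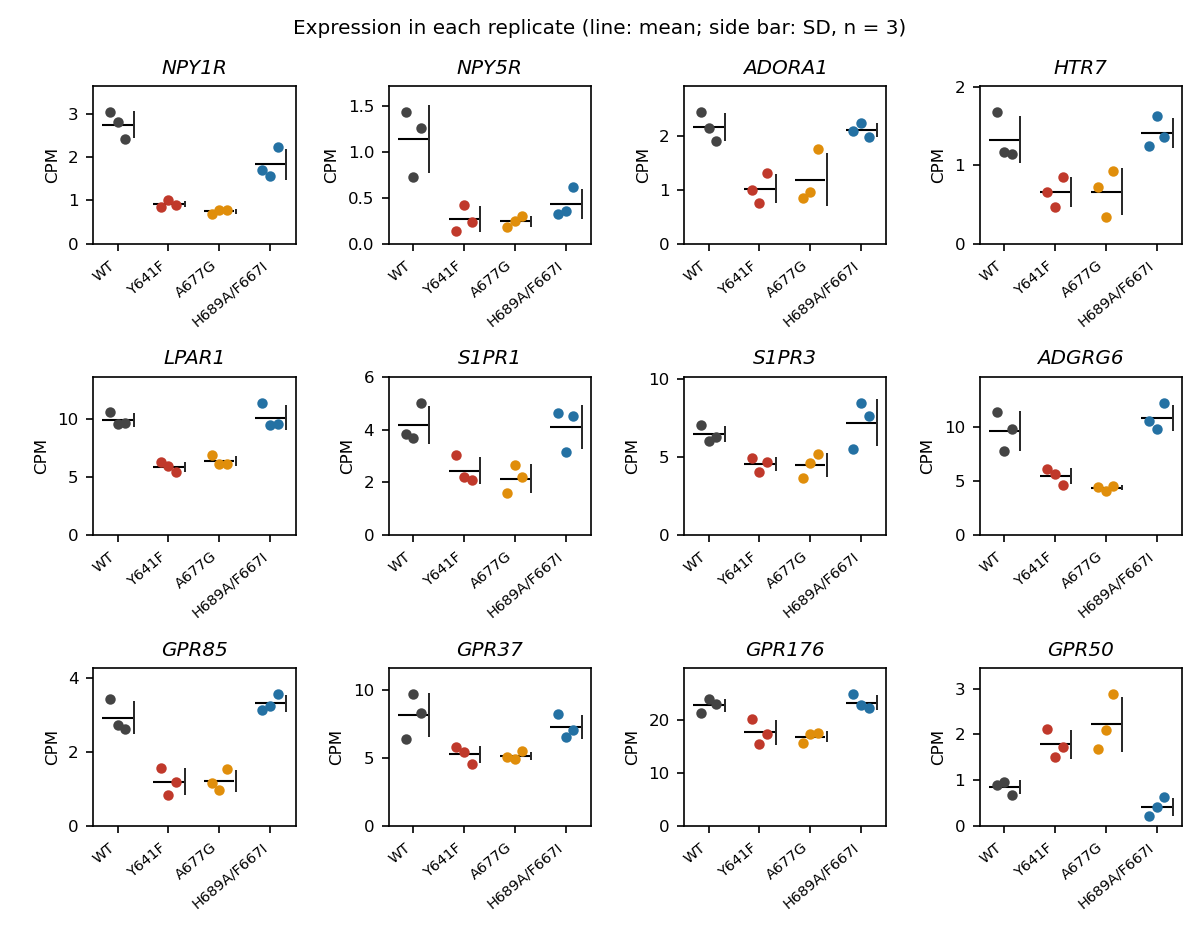
CPM of 12 receptor genes in each sample, with the mean as a line and the SD as a side bar (n = 3), for EZH2 WT (grey), EZH2 Y641F (red), EZH2 A677G (orange) and EZH2 H689A/F667I (blue); each vertical axis starts at 0. In the first 11 panels the GOF samples lie below those of EZH2 WT, and in the GPR50 panel they lie above.

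None of the 5 nucleotide and protease-activated receptors was called against EZH2 WT. F2R, the thrombin receptor, had 35.9 ± 1.27 CPM in EZH2 WT and 34 ± 1.91 in EZH2 H689A/F667I, against 38.2 ± 2.88 in EZH2 Y641F and 36.5 ± 1.65 in EZH2 A677G (mean ± SD, n = 3). The 95% interval of its log2 fold change against EZH2 WT was -0.03 to 0.22 for EZH2 Y641F and -0.09 to 0.15 for EZH2 A677G. F2RL1, protease-activated receptor 2, had 20.4, 19.1 and 21.1 CPM in EZH2 WT and 24.1, 23.7 and 23.3 in EZH2 H689A/F667I, against 22.2, 17.3 and 17.4 in EZH2 Y641F and 19.9, 19.3 and 18.8 in EZH2 A677G. EZH2 H689A/F667I was above all samples of the other lines. Both GOF lines were lower than it, with a log2 fold change of -0.32 (standard error 0.0793, adjusted p = 0.0061) for EZH2 Y641F and -0.29 (standard error 0.0793, adjusted p = 0.0112) for EZH2 A677G. Without EZH2 Y641F replicate 2 or 3 the first call was lost (adjusted p 0.0537 to 0.0615), and without EZH2 A677G replicate 3 or EZH2 H689A/F667I replicate 1 the second (0.0532 to 0.0544). P2RY1, P2RY2 and P2RY11 were called in no comparison.

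Adhesion receptors carry a long extracellular part that is cut next to the membrane. Of the 9 tested, 1 fell and 1 rose in EZH2 Y641F relative to EZH2 WT, and 2 fell in EZH2 A677G. These are small counts, beside 5.59% of all genes lower and 2.09% higher in EZH2 Y641F and 6.48% lower in EZH2 A677G. ADGRG6, known for its part in the myelination of peripheral nerves and in ear and heart development, lies on chromosome 6 (142301854 to 142446266, plus strand, ENSG00000112414.15). Its samples gave 11.4, 7.71 and 9.77 CPM in EZH2 WT and 10.6, 9.8 and 12.2 in EZH2 H689A/F667I, against 6.04, 5.65 and 4.59 in EZH2 Y641F and 4.44, 4.05 and 4.5 in EZH2 A677G. The GOF lines lay below the other lines in every sample and EZH2 A677G below every sample of EZH2 Y641F. The log2 fold change against EZH2 WT was -0.83 (standard error 0.131, adjusted p = 2.79e-05) for EZH2 Y641F and -1.15 (standard error 0.134, adjusted p = 1.13e-07) for EZH2 A677G, and against EZH2 H689A/F667I -1.0 (standard error 0.13, adjusted p = 1.05e-06) and -1.32 (standard error 0.133, adjusted p = 4.91e-09). The last of these had the lowest adjusted p of all receptor values, and all 4 calls held in every other setting and without any single library. EZH2 Y641F stood above EZH2 A677G, with a log2 fold change of 0.32 (standard error 0.139, adjusted p = 0.66) and a 95% interval of 0.04 to 0.61, which did not pass the threshold. The start of ADGRG6, shown as that of the receptor with the lowest adjusted p, is chr6:142301757-142302056 on the plus strand (RefSeq, GRCh38.p14). It runs from 250 bases before the start to 50 after it, with CG in capitals. This window holds 36 CG and stood 73.9% of the way up the ranking of tested genes by CG count.
ADGRG6: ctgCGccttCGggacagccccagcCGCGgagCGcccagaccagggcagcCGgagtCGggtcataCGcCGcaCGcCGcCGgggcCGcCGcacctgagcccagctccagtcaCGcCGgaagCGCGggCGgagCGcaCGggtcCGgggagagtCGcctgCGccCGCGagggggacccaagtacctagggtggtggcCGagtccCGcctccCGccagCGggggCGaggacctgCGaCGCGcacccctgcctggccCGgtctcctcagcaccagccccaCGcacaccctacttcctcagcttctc

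ADGRE5, also known as CD97, is found on leukocytes and many epithelial cells, and it rose. It had 15.7, 13.6 and 14.1 CPM in EZH2 WT and 15.4, 13.1 and 17.2 in EZH2 H689A/F667I, against 21.5, 18.1 and 17.4 in EZH2 Y641F and 16.8, 16.5 and 17.1 in EZH2 A677G. EZH2 Y641F lay above every sample of the other lines. Its log2 fold change was 0.39 (standard error 0.0909, adjusted p = 0.00396) against EZH2 WT and 0.32 (standard error 0.0906, adjusted p = 0.0181) against EZH2 H689A/F667I, the latter lost without EZH2 Y641F replicate 1 or EZH2 H689A/F667I replicate 1 or 2 (adjusted p 0.052 to 0.189). The value in EZH2 A677G against EZH2 WT was 0.21 (standard error 0.0917, adjusted p = 0.166). ADGRA2, a co-receptor for WNT7 in brain vessels, was lower in EZH2 A677G (23.1 ± 1.24 CPM) than in EZH2 WT (26.9 ± 0.616 CPM, mean ± SD, n = 3), with a log2 fold change of -0.22 (standard error 0.0687, adjusted p = 0.0343), a call lost without any EZH2 WT replicate or EZH2 A677G replicate 1 or 2 (0.0686 to 0.186), and it shares 23% of its exon length with BRF2 on the other strand. In EZH2 Y641F ADGRA2 was near this level, at 23.4 ± 1.86 CPM, but was not called. ADGRB2, a receptor mostly of brain, was lower than in EZH2 H689A/F667I (19.8 ± 0.382 CPM) in EZH2 Y641F (14.6 ± 1.78), with a log2 fold change of -0.44 (standard error 0.0855, adjusted p = 0.000511) and in EZH2 A677G (14.9 ± 1.36), with a log2 fold change of -0.41 (standard error 0.0855, adjusted p = 0.000818), and EZH2 WT lay between on average with 17.4 ± 0.997 (mean ± SD, n = 3). ADGRG2, a receptor of the male reproductive tract, was lower in EZH2 A677G (0.887 ± 0.322 CPM) than in EZH2 H689A/F667I (1.74 ± 0.304 CPM, mean ± SD, n = 3), with a log2 fold change of -0.95 (standard error 0.29, adjusted p = 0.0276), which was lost without EZH2 A677G replicate 2 or 3 or EZH2 H689A/F667I replicate 1 or 3 (0.0613 to 0.151). ADGRA3, ADGRB1, ADGRB3 and ADGRV1 were called in no comparison. ADGRF3 was not tested: it is listed at 0 in all 3 EZH2 H689A/F667I samples, a pattern shared by 100 genes of the table in that line while 0 genes are at 0 in exactly 2 of its 3 samples, and it had 0.487, 0.337 and 0.603 CPM in EZH2 WT, 0.618, 0.63 and 0.709 in EZH2 Y641F and 0.404, 0.295 and 0.329 in EZH2 A677G.

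Class C includes the receptors for GABA and glutamate, and 1 of its 6 genes tested was called against EZH2 WT. It fell in EZH2 A677G, where 6.48% of all genes did, and a count of 1 is small. GPRC5C, an orphan receptor related to genes that retinoic acid induces, had 3.44, 4.17 and 3.92 CPM in EZH2 WT and 4.98, 4.46 and 4.87 in EZH2 H689A/F667I, against 3.66, 3.33 and 3.15 in EZH2 Y641F and 2.49, 1.99 and 2.63 in EZH2 A677G. EZH2 A677G lay below every other sample and EZH2 H689A/F667I above every other sample. The log2 fold change in EZH2 A677G was -0.70 (standard error 0.165, adjusted p = 0.00405) against EZH2 WT and -1.01 (standard error 0.162, adjusted p = 2.83e-05) against EZH2 H689A/F667I. In EZH2 Y641F it was -0.18 (standard error 0.159, adjusted p = 0.588) against EZH2 WT and -0.49 (standard error 0.156, adjusted p = 0.0387) against EZH2 H689A/F667I, the latter lost without EZH2 Y641F replicate 2 or 3 or any EZH2 H689A/F667I replicate (adjusted p 0.0622 to 0.144) and in 3 of 12 other settings (0.0505 to 0.06). EZH2 Y641F exceeded EZH2 A677G, with a log2 fold change of 0.51 (standard error 0.165, adjusted p = 0.45), the lowest adjusted p of a receptor between these lines, with a 95% interval of 0.18 to 0.85. GABBR2, a subunit of the receptor for GABA, had 2.0, 1.4 and 1.99 CPM in EZH2 WT and 0.541, 0.586 and 1.3 in EZH2 H689A/F667I. It had 0.999, 1.156 and 0.946 in EZH2 Y641F and 0.763, 1.155 and 1.234 in EZH2 A677G. All mutant samples lay below every EZH2 WT sample, and GABBR2 was called in no comparison. For EZH2 H689A/F667I against EZH2 WT the log2 fold change was -1.17 (standard error 0.309, adjusted p = 0.116). GABBR2 was chosen after its values were seen, since in that comparison it is called by edgeR's exact test and by limma voom. It is also called there where genes at 0 in a line were kept and without EZH2 H689A/F667I replicate 3. GABBR1, GPRC5A, GPRC5B and GRM8 were called in no comparison.

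The 21 receptors known by a GPR number are mostly orphans. Against EZH2 WT, 4 of them (19%) were lower and 1 (4.76%) was higher in each GOF line. The matching shares over the whole set of tested genes were 5.59% and 2.09% for EZH2 Y641F, 6.48% and 2.07% for EZH2 A677G. The higher share rests on 1 receptor. GPR85, a conserved receptor of the brain, lies on chromosome 7 (113078331 to 113087778, minus strand, ENSG00000164604.14). It had 3.44, 2.74 and 2.62 CPM in EZH2 WT and 3.14, 3.26 and 3.57 in EZH2 H689A/F667I, against 1.57, 0.84 and 1.18 in EZH2 Y641F and 1.17, 0.958 and 1.54 in EZH2 A677G. No GOF sample came near another line. Its log2 fold change from EZH2 WT was -1.29 (standard error 0.228, adjusted p = 0.000146) for EZH2 Y641F and -1.27 (standard error 0.228, adjusted p = 0.000153) for EZH2 A677G, and against EZH2 H689A/F667I -1.46 (standard error 0.226, adjusted p = 1.87e-05) and -1.45 (standard error 0.226, adjusted p = 1.82e-05). These 4 calls held in every other setting and without any single library. GPR37, an orphan receptor of brain and oligodendrocytes, is at chromosome 7 (124743885 to 124765792, minus strand, ENSG00000170775.3) and had 6.41, 9.68 and 8.33 CPM in EZH2 WT and 8.23, 6.52 and 7.08 in EZH2 H689A/F667I, against 5.8, 5.41 and 4.54 in EZH2 Y641F and 5.03, 4.89 and 5.49 in EZH2 A677G. Both GOF lines lay below the other lines. GPR37 was at -0.63 (standard error 0.137, adjusted p = 0.00178) for EZH2 Y641F and -0.67 (standard error 0.137, adjusted p = 0.00091) for EZH2 A677G against EZH2 WT, and at -0.47 (standard error 0.138, adjusted p = 0.0247) and -0.50 (standard error 0.139, adjusted p = 0.0134) against EZH2 H689A/F667I. The EZH2 Y641F call against EZH2 WT was lost without EZH2 WT replicate 2 (adjusted p = 0.0529). The EZH2 Y641F call against EZH2 H689A/F667I was lost without EZH2 Y641F replicate 3 or EZH2 H689A/F667I replicate 1 or 3 (0.0515 to 0.19) and by limma voom (0.0536). The EZH2 A677G call against EZH2 H689A/F667I was lost without EZH2 A677G replicate 1 or 2 or EZH2 H689A/F667I replicate 1 (0.0564 to 0.126). GPR37 shares 21.4% of its exon length with an unclassified gene model on the same strand.

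GPR176, known from the circadian centre of the brain, and GPR161, a receptor of the primary cilium that restrains Hedgehog signalling, were more highly expressed and changed less. GPR176, on chromosome 15 (39799008 to 39920936, minus strand, ENSG00000166073.12), had 21.2, 23.8 and 22.9 CPM in EZH2 WT and 24.8, 22.7 and 22.1 in EZH2 H689A/F667I, against 20.1, 15.4 and 17.3 in EZH2 Y641F and 15.5, 17.3 and 17.6 in EZH2 A677G. Its GOF samples lay below all others. The log2 fold change was -0.36 (standard error 0.0822, adjusted p = 0.00306) for EZH2 Y641F and -0.43 (standard error 0.0826, adjusted p = 0.000328) for EZH2 A677G against EZH2 WT, and -0.40 (standard error 0.0821, adjusted p = 0.00103) and -0.47 (standard error 0.0825, adjusted p = 0.000102) against EZH2 H689A/F667I, and these calls held in every other setting and without any single library. GPR161, on chromosome 1 (168079542 to 168137667, minus strand, ENSG00000143147.15), had 31.5, 30.2 and 30.7 CPM in EZH2 WT and 29.1, 32.2 and 30.6 in EZH2 H689A/F667I, against 27.7, 26.1 and 24.9 in EZH2 Y641F and 25.3, 25.7 and 26.9 in EZH2 A677G, again without overlap of the GOF lines with the others. Its changes were -0.23 (standard error 0.062, adjusted p = 0.0135) and -0.25 (standard error 0.0621, adjusted p = 0.00673) against EZH2 WT, and -0.22 (standard error 0.0621, adjusted p = 0.0162) and -0.24 (standard error 0.0622, adjusted p = 0.00835) against EZH2 H689A/F667I. Without EZH2 WT replicate 1 or EZH2 Y641F replicate 3 the EZH2 Y641F call against EZH2 WT was lost (adjusted p 0.0685 to 0.0883). Against EZH2 H689A/F667I the EZH2 Y641F call was lost without EZH2 Y641F replicate 3 or EZH2 H689A/F667I replicate 2 (0.104 to 0.131) and the EZH2 A677G call without EZH2 A677G replicate 1 or EZH2 H689A/F667I replicate 2 (0.0511 to 0.0807). GPR160, an orphan, was lower in EZH2 A677G (13.9 ± 0.525 CPM) than in EZH2 H689A/F667I (16.8 ± 0.672 CPM, mean ± SD, n = 3), with a log2 fold change of -0.27 (standard error 0.0826, adjusted p = 0.0254), a call lost without EZH2 A677G replicate 2 or 3 or EZH2 H689A/F667I replicate 1 or 2 (0.0794 to 0.108).

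GPR50 moved in the opposite direction to these genes. It is an X-linked relative of the melatonin receptors that does not bind melatonin itself, on chromosome X (151176584 to 151181465, plus strand, ENSG00000102195.10). The samples gave 0.893, 0.958 and 0.664 CPM in EZH2 WT and 0.216, 0.407 and 0.621 in EZH2 H689A/F667I, against 2.12, 1.5 and 1.73 in EZH2 Y641F and 1.68, 2.09 and 2.88 in EZH2 A677G. The GOF lines were above EZH2 WT in every sample, and EZH2 H689A/F667I was below it in every sample. The log2 fold change against EZH2 WT was 1.08 (standard error 0.292, adjusted p = 0.0151) for EZH2 Y641F and 1.38 (standard error 0.288, adjusted p = 0.00103) for EZH2 A677G, and against EZH2 H689A/F667I 2.12 (standard error 0.327, adjusted p = 1.87e-05) and 2.42 (standard error 0.322, adjusted p = 1.17e-06). The EZH2 Y641F call against EZH2 WT was lost without EZH2 WT replicate 3 or EZH2 Y641F replicate 1 (adjusted p 0.0628 to 0.0751), while the other 3 held in every setting that tested the gene and without any single library. EZH2 H689A/F667I against EZH2 WT was at -1.04 (standard error 0.359, adjusted p = 0.337) and did not pass the threshold. The start of GPR50, shown as the only receptor higher in all 4 of these comparisons, is chrX:151176334-151176633 on the plus strand (RefSeq, GRCh38.p14), again with CG in capitals. This window holds 7 CG and stood 4.63% of the way up the ranking of tested genes by CG count.
GPR50: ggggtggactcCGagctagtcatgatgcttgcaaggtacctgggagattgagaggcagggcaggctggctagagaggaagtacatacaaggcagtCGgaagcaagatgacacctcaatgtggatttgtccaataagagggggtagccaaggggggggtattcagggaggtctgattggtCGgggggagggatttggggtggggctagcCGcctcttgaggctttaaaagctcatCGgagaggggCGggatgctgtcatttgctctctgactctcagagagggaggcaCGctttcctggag

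**Figure D4:**
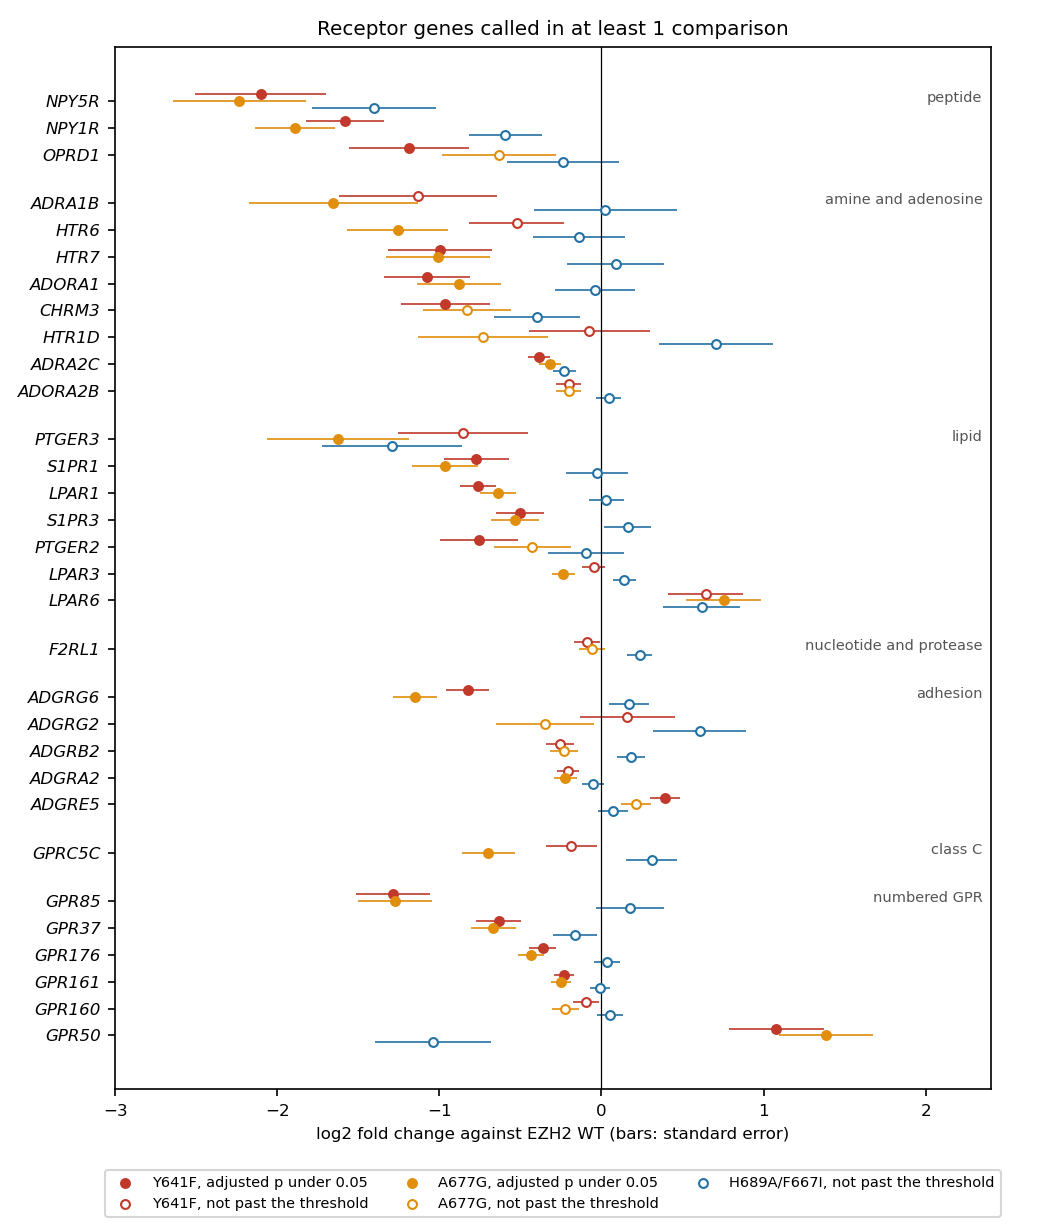
Log2 fold change against EZH2 WT of the 31 receptor genes called in at least 1 of the 6 comparisons, by family, in EZH2 Y641F (red), EZH2 A677G (orange) and EZH2 H689A/F667I (blue); bars are standard errors, and filled points have an adjusted p under 0.05. No blue point is filled, and ADGRE5, LPAR6 and GPR50 have the filled points to the right of 0.

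The 36 tested receptors called in no comparison include GPR180, F2R and GPR107, which are among the 5 receptors highest per kb. GPR180 had 126.5 ± 4.02 CPM in EZH2 WT and 123.4 ± 1.38 in EZH2 H689A/F667I, against 126.3 ± 1.97 in EZH2 Y641F and 126.3 ± 4.95 in EZH2 A677G (mean ± SD, n = 3). The 95% interval of its log2 fold change against EZH2 WT was -0.08 to 0.08 for EZH2 Y641F and -0.08 to 0.08 for EZH2 A677G. For GPR107, at 69.3 ± 0.336 CPM in EZH2 WT, the intervals were -0.02 to 0.17 and -0.03 to 0.16. Others with a GPR number included GPR19, GPR27, GPR63, GPR75, GPR108, GPR135, GPR137, GPR146, GPR153, GPR155, GPR157 and GPR162. Over the 36, log2 fold changes against EZH2 WT lay between -1.04 and 0.52 for EZH2 Y641F, between -0.78 and 0.34 for EZH2 A677G and between -1.17 and 0.69 for EZH2 H689A/F667I.

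The 11 receptors lower in the pair of comparisons without shared samples had a median of 5.65 CPM and 0.615 CPM per kb of exon, and the 36 called in no comparison 2.84 CPM and 0.964 CPM per kb. The median GC content, taken from the longest transcript of each gene, was 47.9% for the 11 and 51.7% for the 36. A gene with several RefSeq starts was represented by the window with the most CG. These windows held a median of 28 CG in 300 bases for the 11 (10 with a window) and 31.5 for the 36 (26 with a window). The median was 32.5 over 52 of the receptors tested and 29 over all genes tested with a window. CG content in these windows ranged over nearly the same values in the lower receptors, from 7 to 50, and in those not called, from 7 to 54. Between EZH2 Y641F and EZH2 A677G the 11 receptors differed by -0.20 to 0.32 on the log2 scale, with 95% intervals that together reach from -0.76 to 0.86.

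The remaining genes of the signalling pathway were taken from lists chosen by role. Relative to EZH2 WT, where 5.59% of all genes fell and 2.09% rose in EZH2 Y641F, and 6.48% fell and 2.07% rose in EZH2 A677G, none of 11 G protein alpha subunits tested fell in any line and 1 rose in EZH2 A677G: GNAI1, an inhibitory subunit, with a log2 fold change of 0.15 (standard error 0.0494, adjusted p = 0.0431). Among 12 beta and gamma subunits, 3 fell in each GOF line (25%) and 1 in EZH2 H689A/F667I. The gamma subunit GNG2 was at -0.58 (standard error 0.17, adjusted p = 0.0256) for EZH2 Y641F and -1.21 (standard error 0.179, adjusted p = 8.42e-06) for EZH2 A677G, and GNG11 at -0.79 (standard error 0.213, adjusted p = 0.0143) and -1.04 (standard error 0.218, adjusted p = 0.00107). GNG12 fell in EZH2 Y641F, with a log2 fold change of -0.19 (standard error 0.0471, adjusted p = 0.00792), and GNB1, a beta subunit, in EZH2 H689A/F667I, with a log2 fold change of -0.20 (standard error 0.0406, adjusted p = 0.0121).

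Effectors fell for 3 of 23 genes in each GOF line (13%, against 5.59% and 6.48% of all genes), and 1 rose in EZH2 A677G (4.35%, against 2.07%). The adenylyl cyclase ADCY1, which calcium activates, was at -0.48 (standard error 0.064, adjusted p = 1.26e-06) for EZH2 Y641F and -0.42 (standard error 0.0639, adjusted p = 1.2e-05) for EZH2 A677G. Of the phosphodiesterases that break down cyclic AMP, PDE4B was at -1.70 (standard error 0.315, adjusted p = 0.00027) and -1.22 (standard error 0.30, adjusted p = 0.00604), and PDE4D at -0.42 (standard error 0.082, adjusted p = 0.000582) and -0.40 (standard error 0.082, adjusted p = 0.000908). ADCY9, another adenylyl cyclase, rose in EZH2 A677G, with a log2 fold change of 0.16 (standard error 0.0462, adjusted p = 0.0194). Of 27 regulators, 4 fell (14.8%) and 1 rose (3.7%) in EZH2 Y641F, where 5.59% and 2.09% of all genes did, and 3 fell in EZH2 A677G (11.1%, against 6.48%). These are small counts. RGS4 and RGS7, which speed the return of G proteins to rest, were at -2.09 (standard error 0.402, adjusted p = 0.000456) and -1.35 (standard error 0.336, adjusted p = 0.00763) for EZH2 Y641F, and at -1.35 (standard error 0.373, adjusted p = 0.0153) and -1.99 (standard error 0.362, adjusted p = 0.000187) for EZH2 A677G. RGS17 fell in EZH2 Y641F, with a log2 fold change of -0.52 (standard error 0.156, adjusted p = 0.0318), and REEP1, a shaping protein of the endoplasmic reticulum, with a log2 fold change of -0.39 (standard error 0.0969, adjusted p = 0.00706) for EZH2 Y641F and -0.34 (standard error 0.0967, adjusted p = 0.0183) for EZH2 A677G.

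Receptors of the same superfamily whose symbols the rule does not cover fell in 8 of 35 cases in EZH2 Y641F and 7 of 35 in EZH2 A677G, 22.9% and 20% of them beside 5.59% and 6.48% of all genes, with none higher and none called in EZH2 H689A/F667I against EZH2 WT. ADCYAP1R1, the receptor of the neuropeptide PACAP, fell from 9.47 ± 1.24 CPM in EZH2 WT to 3.81 ± 0.465 in EZH2 Y641F and 3.79 ± 0.504 in EZH2 A677G (mean ± SD, n = 3), with a log2 fold change of -1.32 (standard error 0.139, adjusted p = 1.54e-08) and -1.32 (standard error 0.139, adjusted p = 1.07e-08). It was at 10.3 ± 1.7 in EZH2 H689A/F667I. LGR5, a receptor for R-spondins that marks stem cells of the gut, was at -1.14 (standard error 0.128, adjusted p = 5.69e-08) and -0.61 (standard error 0.123, adjusted p = 0.000707), the endothelin receptor EDNRB at -1.02 (standard error 0.147, adjusted p = 5.3e-06) and -1.03 (standard error 0.147, adjusted p = 4.6e-06), and QRFPR, a receptor for an RFamide peptide, at -0.53 (standard error 0.113, adjusted p = 0.0016) and -0.76 (standard error 0.115, adjusted p = 1.24e-05).

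**Figure D5:**
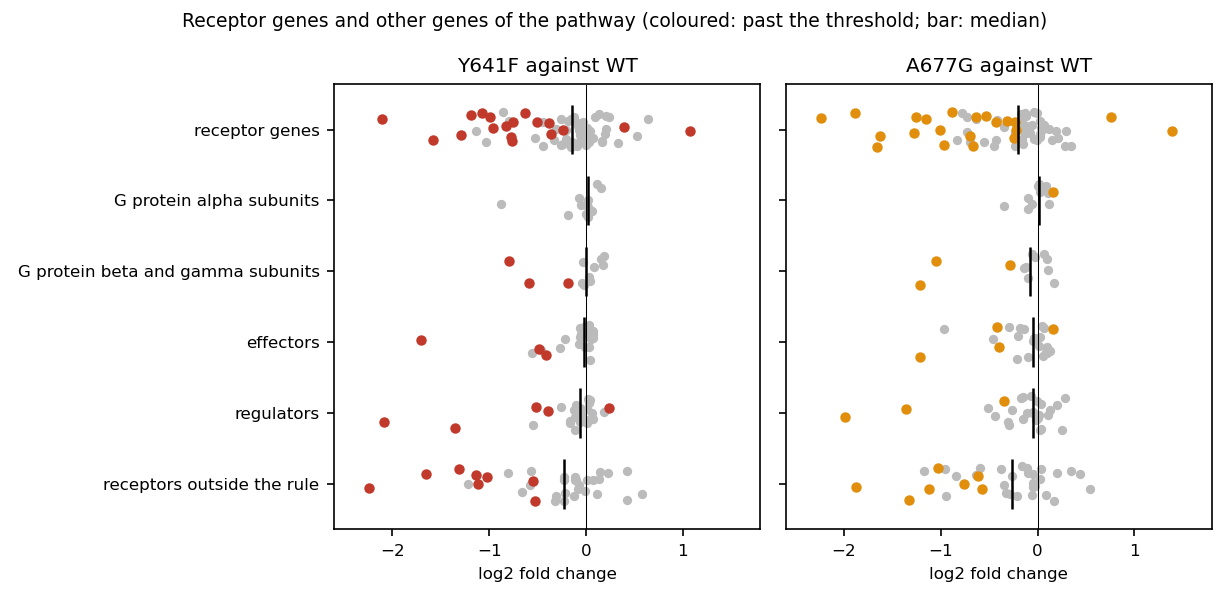
Log2 fold change against EZH2 WT in EZH2 Y641F (left) and EZH2 A677G (right) of the 67 receptor genes and of the genes in 5 lists of the pathway, 1 point per gene, coloured where the adjusted p is under 0.05, with the median of each row as a bar. The coloured points lie mostly to the left of 0 in the receptor rows, and of the alpha subunits GNAI1 alone is coloured, in EZH2 A677G.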

How the data were processed

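RNA-Seq was carried out on 12 samples, 3 for each of 4 HEK293T lines, grouped by the sample titles. According to the study's methods and the submitters' processing notes, stranded poly(A) libraries were trimmed with Trim Galore 0.6.5, aligned to GRCh38 with STAR 2.7.9a and quantified with Salmon 1.2.0 on GENCODE annotation, and the study tested genes with edgeR 3.16. The authors deposited whole-number counts per gene symbol, not normalised, for 14438 genes; how estimated values became whole counts, which filter was applied and whether strand was used are not given in the sources used here.

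The counts were analysed as deposited with edgeR 4.0.16 in R 4.3.3: TMM factors, 1 coefficient per line over all 12 samples, glmQLFit and glmQLFTest, 6 comparisons between lines, and Benjamini-Hochberg adjustment over 14263 genes, with 0.05 as the threshold. The 175 genes at 0 in all 3 samples of a line were left out, ADGRF3 among them. The standard error is the log2 fold change divided by the square root of F, and 95% intervals come from the same fit. CPM were scaled by TMM, and levels were compared between genes per kb of GENCODE v44 exon length. Alternatives were edgeR's exact test, DESeq2 1.42.0, limma 3.58.1 voom, other scalings and filters, only the compared lines, GC correction, a replicate block and each library left out. The edgeR quasi-likelihood fit was tested on simulated counts, and the other steps were not. Library totals of 32137700 to 44562413 make the smallest step 0.0224 to 0.0310 CPM.

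Receptors were named where called in any comparison, on the study's target list or among the 5 highest per kb, and pathway genes by the 4 lowest p-values of a list. The members and lists were chosen with earlier results of these data known. RefSeq windows were matched by symbol for 52 of the 67 receptors tested. Where a gene had several starts, the window with the most CG was taken, for receptors and all other genes alike. A few genes of the lists are not reported here by name.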

Additional observations from a re-analysis of the deposited data

How the results depend on the processing

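Of the 78 receptor values called in the 6 comparisons, 41 held without any single library and in every alternative run that gave an adjusted p for the gene. In all such runs other than a left-out library 69 held, and 0 changed direction. For EZH2 H689A/F667I against EZH2 WT the main count was 0. There edgeR's exact test called 2 receptors (GABBR2 and NPY5R), and limma voom with sample weights called 1, GABBR2. Keeping genes at 0 in a whole line called 2, and no filter on low counts, which is the same fit, called 2. Of the 14 receptors with an unadjusted p under 0.05 in the main test, GABBR2 alone was called in these 2 runs. They also tested ADGRF3, which is listed at 0 in all 3 EZH2 H689A/F667I samples. With a single library left out, the count of called receptors lay between 12 and 19 for EZH2 Y641F and between 13 (without EZH2 WT replicate 1) and 19 for EZH2 A677G against EZH2 WT. It went from 0 to 1 (without EZH2 H689A/F667I replicate 3) in EZH2 H689A/F667I against EZH2 WT, from 11 (without EZH2 Y641F replicate 3 or EZH2 H689A/F667I replicate 3) to 20 in EZH2 Y641F against EZH2 H689A/F667I, from 14 (without EZH2 A677G replicate 2) to 18 in EZH2 A677G against EZH2 H689A/F667I, and was 0 throughout between EZH2 Y641F and EZH2 A677G. Fewer samples entered these fits. Same-numbered samples of different lines did not deviate together (correlations of -0.056 to 0.050 over 18 pairs), so that the numbers do not pair them; with a replicate block the counts were 18, 22, 0, 17, 22 and 0, for the Y641F, A677G and H689A/F667I lines against EZH2 WT, the Y641F and A677G lines against EZH2 H689A/F667I, and EZH2 Y641F against EZH2 A677G. These compare with 18, 21, 0, 17, 22 and 0 without it. With the GC trend removed they were 17, 22, 0, 17, 22 and 0, and with the block as well 18, 21, 0, 17, 22 and 0. Receptors under 1 CPM rest on few counts, and changes in them were detectable only where large.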
